A study of Mus musculus with 11 samples.

Results

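The genes described here are 9 transcription factor genes of developing neurons, *Pou3f1*, *Pou3f2*, *Pou3f3*, *Pou4f1*, *Pou4f2*, *Pou4f3*, *Onecut1*, *Onecut2* and *Onecut3*, taken from the 21755 protein-coding genes on chromosomes 1 to 19 and X. They were chosen by name, not by a measured value, though earlier results of these data were known when they were chosen. They fall into 3 families of 3 genes each. For each gene, the peaks of the histone modification H3K27me3 were read over the gene body and 10 kb either side, called its window below. The question was how the *Pou3f* genes, which are known to be expressed in the forebrain, compared with the *Pou4f* and *Onecut* genes across 4 forebrain regions. Their expression was not measured in these files.

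H3K27me3 was profiled by CUT&Tag (antibody-guided cutting and tagging of the DNA at modified nucleosomes by a transposase) in wild-type C57BL/6J mouse embryos. The 11 samples came from the medial (MGE, 2 samples), caudal (CGE, 3) and lateral (LGE, 3) ganglionic eminences, which are ventral neurogenic zones, and from the somatosensory cortex (CTX, 3). The authors merged the samples of each region and called broad peaks once, so each region is 1 list, values carry no replicate error and no test was possible. The embryos were at embryonic day 12.5, although the labels' protocol also names day 14.5 and a pooling of nuclei from the 4 regions, whereas each sample carries the label of 1 region. The CGE, LGE and CTX groups each hold 2 samples with the same replicate number, and the study's methods name 2 biological replicates per region, each pooled from several embryos, so the 3 samples of such a group are not 3 independent replicates.

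H3K27me3 is written by Polycomb repressive complex 2 and lies mostly over CpG-rich starts of developmental genes that are kept silent in a tissue. The POU3F factors (POU3F1, also called OCT6, with POU3F2 and POU3F3, also called BRN2 and BRN1) act in neural progenitors and in cortical neurons. The POU4F or BRN3 factors specify sensory neurons, retinal ganglion cells and hair cells, and the Onecut factors, which carry a cut domain beside their homeodomain, act in liver, pancreas, motor neurons and retinal horizontal cells.

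The lists held from 15384 peaks over 24.5 Mb in MGE to 19196 peaks over 32.9 Mb in CGE, and the median −log10 q (the authors' measure of how surely a peak stands above background) was lowest in MGE at 3.38 and highest in CGE at 4.61. Strong and weak refer below to this value and not to fold enrichment, whose median was highest in MGE at 2.99 and lowest in CGE at 2.71. Among 13 markers chosen for the tissue and its neighbours, 4 had at least 50% of their promoter (2 kb upstream from the gene's 5′ end) under peaks in all 4 lists and 6 had no covered promoter base in any. Of all protein-coding genes, 4.72% had at least 50% of the promoter under peaks in all 4 lists. *Nkx2-1* and *Lhx6*, genes of the MGE, had 100% of their promoters under peaks in every list, MGE included, and the promoter of *Emx1*, a cortical gene, was covered over 97.4% in CTX. By window, *Nkx2-1* was lowest in MGE (42.7%, against 50.3% to 54.3% elsewhere) and *Emx1* in CTX (14.7%, against 25.3% to 28.5%). *Nr2f2*, a CGE gene, was lowest in CGE (28.7%, against 33.9% to 36.4%). *Lhx6* was lowest in LGE (26.8%, against 29.9% in MGE), and *Sp8*, an LGE gene, in CTX (17.1%, against 29.6% in LGE). A dissected region holds several cell types, which these lists do not separate. The hindbrain and trunk genes *Hoxa5* and *Hoxb5* had from 55.3% to 64.6% of their windows covered. The blood gene *Gata1* and the endothelial gene *Cdh5* had no peak in their windows in any list, which says nothing about whether such cells were present.

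All 9 genes had peaks in their windows in all 4 lists. A window with at least 1 covered base was found for 43.3% (MGE), 46.0% (CGE), 44.7% (LGE) and 47.2% (CTX) of protein-coding genes. The 9 windows were also more widely covered than most. Their coverage ranged from 11.5% of the window (*Onecut2* in MGE) to 47.3% (*Pou4f1* in CTX), while the median over all protein-coding genes was 0 in each list and the mean lay between 2.67% and 3.36%. The lowest place any of the 9 took was above 92.1% of genes, *Onecut2* in CGE.

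**Figure D1:**
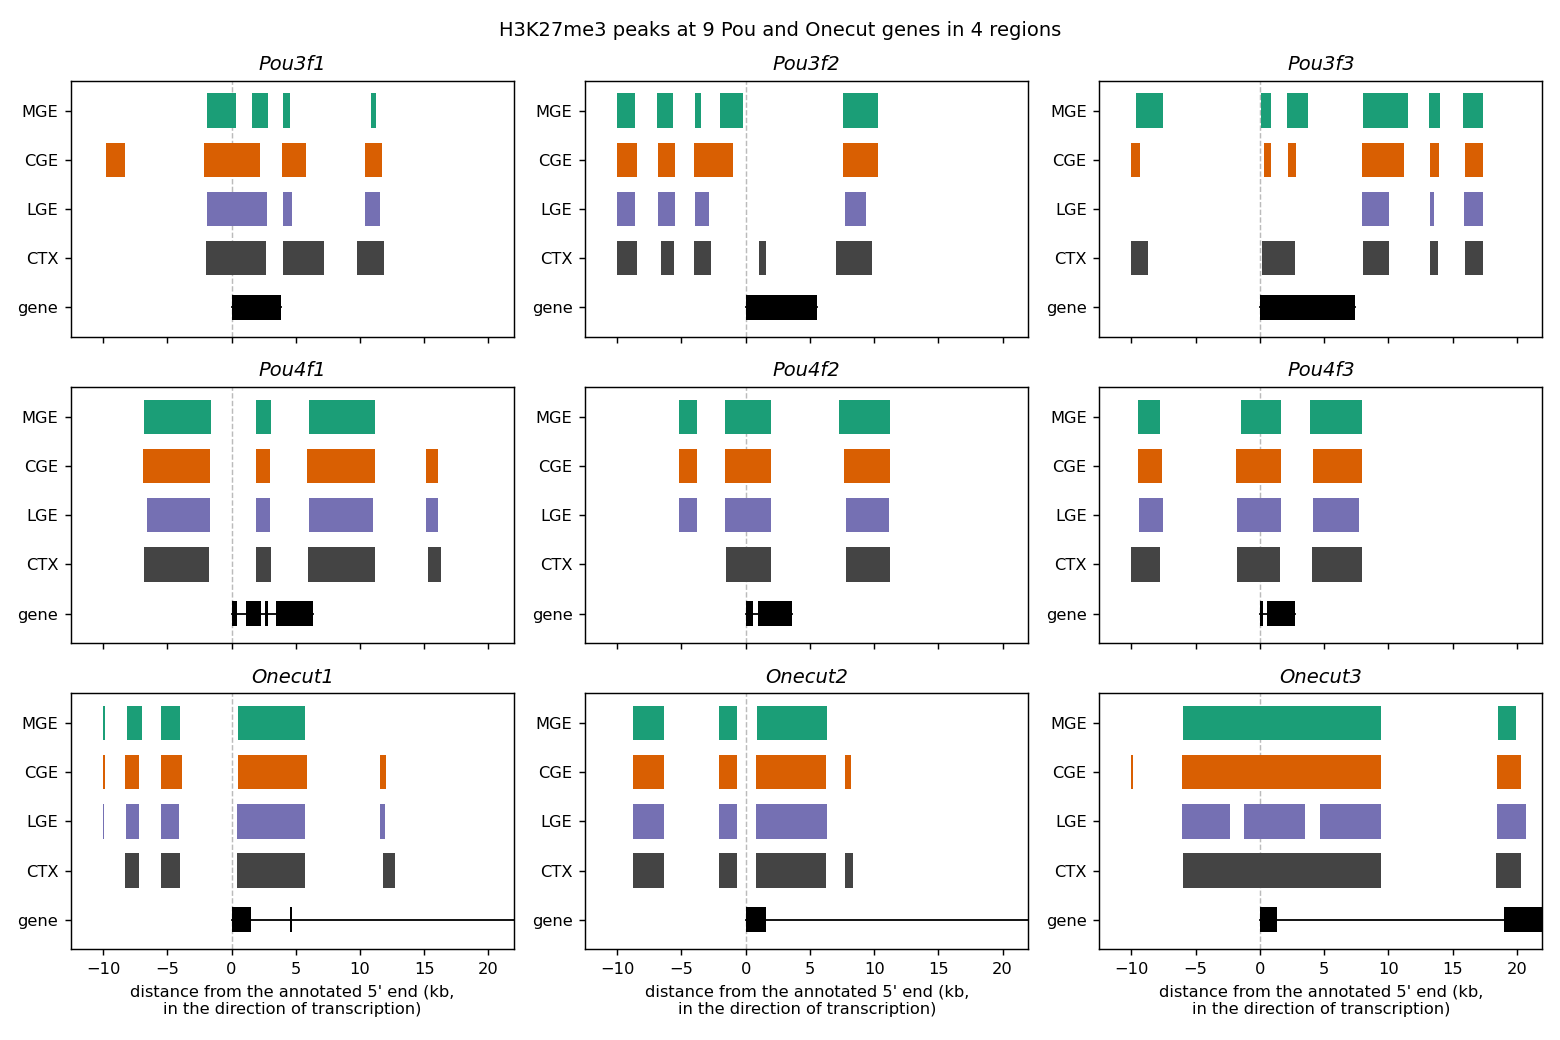
Peaks of each merged list (coloured bars, 1 row per region) around the annotated 5′ end of each gene, with the horizontal axis in kb along the direction of transcription and exons as black boxes, and with peaks drawn only inside each window. The rows of the *Pou4f* and *Onecut* genes look nearly alike, apart from small outer peaks, the LGE row of *Onecut3*, broken into 3 pieces where the other lists hold 1 domain, and the CTX row of *Pou4f2*, which lacks the upstream peak, while the rows of the *Pou3f* genes differ in number, width and place of peaks.

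A promoter was called marked when at least 50% of its bases lay under peaks. Of the 9 genes, 6 were marked in each of MGE and CGE and 5 in each of LGE and CTX, against, in the same order, 6.47%, 8.33%, 6.52% and 7.14% of all protein-coding genes. Marked in all 4 lists were 5 of the 9, namely *Pou3f1*, *Pou4f2*, *Pou4f3*, *Onecut2* and *Onecut3*, against 4.72% of genes. *Pou3f3* and *Onecut1* had no covered promoter base in any list. *Pou4f1* was covered over 11.9% to 20.2% of its promoter, which is short of the threshold in each list. The families were therefore each mixed, with 1 of 3 *Pou3f*, 2 of 3 *Pou4f* and 2 of 3 *Onecut* genes marked everywhere.

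**Figure D2:**
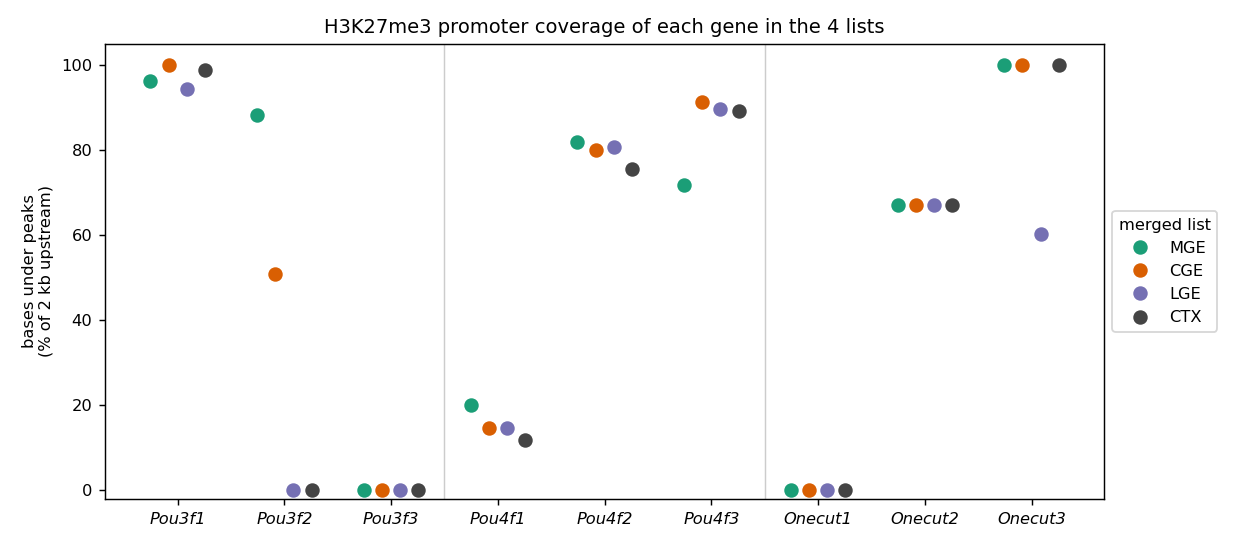
Share of the 2 kb upstream of each gene (vertical axis, %) that lay under peaks, with 1 point per merged list and no error bars because each region has 1 list. The points of a gene sit close together except at *Pou3f2*, from 0 to 88.3%, and at *Onecut3*, where the LGE point at 60.3% lies below the other 3 at 100%.

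At a difference of 25 points or more between the highest and the lowest list, 2 of the 9 promoters differed between regions, *Pou3f2* and *Onecut3*, against 8.42% of all protein-coding promoters. The *Pou3f2* promoter was covered over 88.3% in MGE, 50.9% in CGE and 0 in LGE and CTX. At *Pou3f2* no peak touched the promoter in LGE or CTX, though a peak lay just beyond it, 2.87 to 3.96 kb upstream in LGE and 2.72 to 4.06 kb in CTX. In CGE the covered part was the near end of a peak that ran from 4.05 to 0.981 kb upstream. In MGE it was a weak peak with a −log10 q of 1.69. In such bulk lists, fewer cells with the mark and less mark per cell cannot be told apart. The difference at *Onecut3* is one of continuity, and it disappears when peaks less than 3 kb apart are joined, which brings LGE to 100%. A 4 kb interval centred on the start gave another set of genes at the same 25 points. There 3 of the 9 genes differed, namely the *Pou3f* genes. *Pou3f1* ran from 66.05% in MGE to 100% in CGE. *Pou3f2* ran from 0 in LGE to 44.2% in MGE, and *Pou3f3* from 0 in LGE to 45.45% in CTX. *Onecut3* did not differ by this measure, with 80.15% in LGE and 100% in the other lists.

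The exact 5′ end gave a sharper division than the 2 kb promoter. In every list it lay under a peak at *Pou3f1*, *Pou4f2*, *Pou4f3* and *Onecut3*, and outside any peak at *Pou3f2*, *Pou3f3*, *Pou4f1*, *Onecut1* and *Onecut2*. No gene of the 9 changed state between regions. Over all protein-coding genes the 5′ end was under a peak in all 4 lists at 14.5% and in none at 71.2%, so most genes did not change state either. The state of the 5′ end was a measure added after the data were seen. At *Pou4f1*, *Onecut1* and *Onecut2* the uncovered start sat in a gap between peaks whose edges moved little from list to list. The gap was 3538 to 3679 bases wide at *Pou4f1*, 4363 to 4541 at *Onecut1* and 1434 to 1531 at *Onecut2*, where the upstream edge lay 656 bases before the start in each list. At *Pou3f2* the gap ran from 3768 bases in CTX to 10599 in LGE, so the distance there depended on the region.

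The DNA immediately upstream shows what these states look like in sequence. The 250 bases before the RefSeq gene start (GRCm38.p6) were available for 5 of the 9 genes, and 4 are given below, 5′ to 3′ on the strand of the gene, with every CG in capitals. They are shown because *Pou4f2* is the covered start and the others are the uncovered ones, and because they are all rich in CG. *Pou4f2* is at chr8:78436648-78436897 on the minus strand, *Pou4f1* at chr14:104468000-104468249 on the minus strand, *Onecut1* at chr9:74861671-74861920 on the plus strand and *Pou3f2* at chr4:22488367-22488616 on the minus strand.
*Pou4f2*: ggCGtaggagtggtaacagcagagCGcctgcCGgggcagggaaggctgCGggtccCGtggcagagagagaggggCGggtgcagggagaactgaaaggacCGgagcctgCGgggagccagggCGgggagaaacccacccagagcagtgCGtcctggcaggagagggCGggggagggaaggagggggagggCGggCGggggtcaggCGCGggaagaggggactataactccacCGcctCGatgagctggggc
*Pou4f1*: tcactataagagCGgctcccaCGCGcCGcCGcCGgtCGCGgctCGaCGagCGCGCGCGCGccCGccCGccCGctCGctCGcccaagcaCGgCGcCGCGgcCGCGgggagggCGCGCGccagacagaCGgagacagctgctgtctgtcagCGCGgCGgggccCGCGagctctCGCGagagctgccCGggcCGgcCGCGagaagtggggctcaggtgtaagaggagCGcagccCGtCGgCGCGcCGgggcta
*Onecut1*: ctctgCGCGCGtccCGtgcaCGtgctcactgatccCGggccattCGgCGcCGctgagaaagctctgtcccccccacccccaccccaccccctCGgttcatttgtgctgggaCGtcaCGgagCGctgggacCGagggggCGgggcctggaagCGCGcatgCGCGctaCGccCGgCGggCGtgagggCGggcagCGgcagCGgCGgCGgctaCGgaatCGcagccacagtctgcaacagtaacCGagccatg
*Pou3f2*: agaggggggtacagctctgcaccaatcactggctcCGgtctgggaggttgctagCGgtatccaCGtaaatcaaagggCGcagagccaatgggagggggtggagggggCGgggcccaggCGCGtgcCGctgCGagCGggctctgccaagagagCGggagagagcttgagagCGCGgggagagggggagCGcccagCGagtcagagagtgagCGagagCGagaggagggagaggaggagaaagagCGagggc

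The stretch of *Pou4f2* held 17 CG and was covered over 100% in all 4 lists. That of *Pou4f1* held 47 CG, a number reached by 0.25% of the 32851 RefSeq promoters in the table, and none of its bases was covered in any list. *Onecut1* held 31 CG, reached by 5.19% of promoters, and also had no covered base. *Pou3f2* held 18 CG, reached by 21.7%, and was covered over 6.8% in MGE and 0 in the other lists. *Pou3f3* (15 CG, reached by 27.3%) had no covered base either. The median promoter held 6 CG, so all 5 stretches were above it, covered or not. CG reads the same on both strands, and no other motif was searched.

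Over the 4 lists, the median window coverage of a family was 21.4% to 34.0% for *Pou3f*, 38.8% to 41.7% for *Pou4f* and 16.2% to 17.6% for *Onecut*. By this measure *Pou3f* lay between the other families, though single genes overlapped, and the *Onecut* genes ran from 11.5% to 39.6% in MGE. The order rests on window length, since the *Onecut* windows are 42.4 to 81.0 kb long and those of *Pou3f* 23.8 to 27.4 kb. In bases covered, summed over each family, *Pou3f* was lowest at 16.0 to 25.1 kb over the 4 lists. *Pou4f* had 28.8 to 30.1 kb and *Onecut* 32.8 to 36.0 kb. A measure added after the data were seen set the *Pou3f* genes apart, namely how far the 4 lists covered the same bases. Bases covered in all 4 lists made up, among those covered anywhere in the window, 31.9% at *Pou3f1*, 41.4% at *Pou3f2* and 30.7% at *Pou3f3*. The same share was 84.1% at *Pou4f1*, 75.5% at *Pou4f2* and 82.1% at *Pou4f3*, and 78.4% at *Onecut1*, 91.2% at *Onecut2* and 80.8% at *Onecut3*. The lowest value of the 6 *Pou4f* and *Onecut* genes was above the highest of the 3 *Pou3f* genes. With peaks less than 3 kb apart joined this separation was lost, since *Pou3f2* reached 64.3% and *Pou4f2* fell to 60.8%. Summed over each family, without joining, the shares were 34.4% for *Pou3f*, 81.1% for *Pou4f* and 83.0% for *Onecut*.

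Among the 2556 protein-coding genes with at least 5 kb covered in their windows, the median share in all 4 lists was 47.0%, and 16.6% of these genes had 75% or more. All 6 *Pou4f* and *Onecut* genes were past 75%, from above 84.2% of these genes (*Pou4f2*) to above 97.9% (*Onecut2*). The 3 *Pou3f* genes lay below the median, above 30.1% (*Pou3f3*) to 43.0% (*Pou3f2*) of these genes, so the families that stood toward one end were the other 2. Neighbouring genes can share windows, so these genes are not independent of each other.

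**Figure D3:**
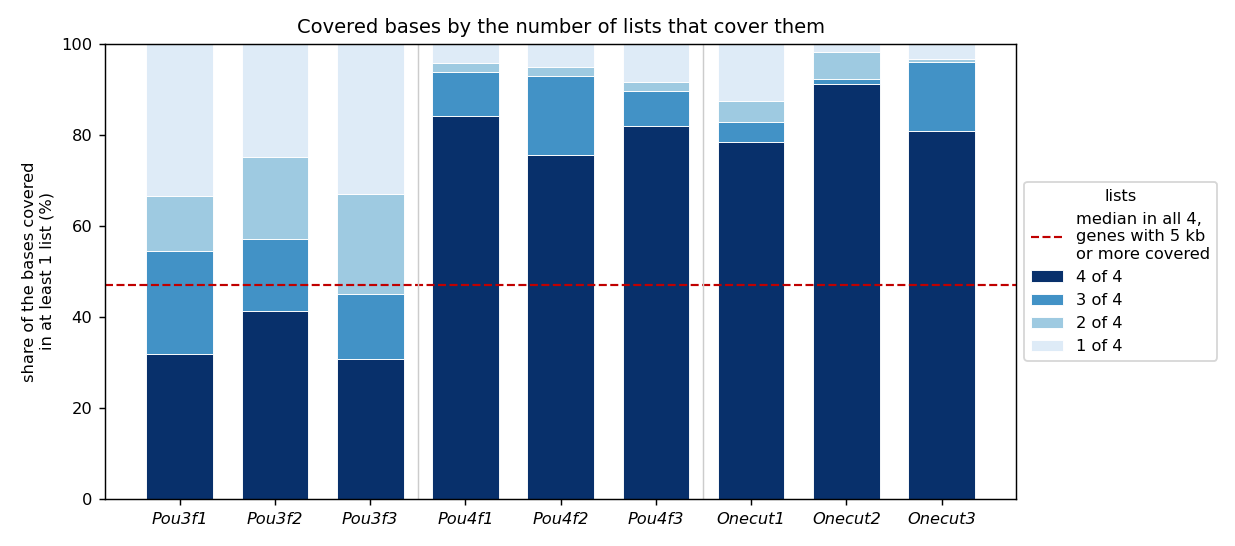
Bases under a peak anywhere in the window, split by the number of lists that cover them (stacked bars, % of those bases), with the dashed line at the median for all-4-list bases over 2556 genes with 5 kb or more covered. The darkest segment, covered in all 4 lists, is at most 41.4% in the *Pou3f* genes and at least 75.5% in the *Pou4f* and *Onecut* genes.

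Pairs of lists were read from the same covered bases, so they restate this contrast and add no separate support. The overlap of a pair, the bases under both lists over the bases under either, ranged over the 6 pairs from 48.3% to 62.7% for the *Pou3f* windows, from 85.3% to 95.3% for *Pou4f* and from 87.0% to 95.1% for *Onecut*. Over the whole genome the 6 pairs ranged from 46.5% to 60.1%, close to the *Pou3f* range.

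The −log10 q of the peaks moved with this separation, and their fold enrichment did so in the opposite direction. Peaks were counted in each of the 4 lists, so a place with a peak in every list was counted 4 times. These counts are therefore not independent, and such places raise the recurring shares given below. The median −log10 q of the peaks was 5.99 over 52 *Pou3f* peaks, 37.7 over 38 *Pou4f* peaks and 28.5 over 44 *Onecut* peaks. Each peak was also placed by −log10 q within its own list. The median place was above 59.7%, 89.9% and 88.7% of the peaks for the 3 families in this order. The median fold was 2.32, 2.06 and 1.89 in the same order, and 2.85 over all peaks. Peaks of high −log10 q also recurred more often in the genome as a whole. Of the peaks at or above the 80th percentile by −log10 q in each list, 95.4% were covered over at least 50% of their length in all 3 other lists, against 33.7% of the rest. Over all their peaks, 57.7% of the *Pou3f*, 81.6% of the *Pou4f* and 86.4% of the *Onecut* peaks recurred in this way. In the strong class these were 7 of 9, 25 of 26 and 29 of 29 peaks, and among the weaker peaks 23 of 43, 6 of 12 and 9 of 15. The weaker peaks of the 3 families thus recurred in similar shares (53.5%, 50% and 60%), and the *Pou3f* windows held few strong ones. The part of either measure in the separation was not tested.

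*Pou3f1* (chr4:124656807-124660655, plus strand, a gene of 1 exon) was the gene of its family with a covered start. Its promoter was covered over 96.2% (MGE), 100% (CGE), 94.5% (LGE) and 98.9% (CTX). The peak on the start was 4363 bases wide (CGE), 4631 (LGE) and 4637 (CTX) and ran into the coding sequence. In MGE the same stretch held a peak of 2271 bases and another of 1243, with the bases between them uncovered. The strongest peak had a −log10 q of 12.2 (MGE), 58.7 (CGE), 35.6 (LGE) and 50.4 (CTX), so MGE was lowest in width and in −log10 q. The MGE list also had the lowest median −log10 q as a whole, though the highest median fold, and the part of this in the *Pou3f1* values was not tested. Window coverage was 18.5% (MGE), 37.8% (CGE), 27.4% (LGE) and 41.5% (CTX). The 5′ end of the antisense RNA gene *Gm2164* lies 363 bases into *Pou3f1*, so a peak there cannot be assigned to either gene.

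Without the MGE list the share of *Pou3f1* bases covered in every remaining list was 51.3%. This remained below the lowest value of the 6 *Pou4f* and *Onecut* genes under the same omission, 78.9% at *Pou4f2*.

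*Pou3f2* (chr4:22482780-22488366, minus strand, 1 exon) was flanked rather than covered. In each list a peak lay 7.0 to 10.3 kb downstream of the start, beyond the 3′ end of the gene, and 3 groups of peaks lay about 3 to 10 kb upstream. The gene body had no covered base in MGE, CGE or LGE, and in CTX a peak of 558 bases, 93.9% of it coding sequence, covered 9.99% of it. The downstream peak had a −log10 q of 6.18 (MGE), 25.1 (CGE), 8.68 (LGE) and 39.8 (CTX). It was the strongest of the window in CGE and CTX. Window coverage was 29.6% (MGE), 34.0% (CGE), 21.4% (LGE) and 28.7% (CTX).

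The promoter difference at *Pou3f2* rested on 2 peaks of unequal strength. In MGE it came from a peak of 1778 bases with a −log10 q of 1.69, above 17.7% of the MGE peaks. In CGE it came from the edge of a peak of 3069 bases with a −log10 q of 13.4 that ran from 4.05 to 0.981 kb upstream. With q-values under 0.001 alone, MGE fell to 0 and CGE kept 50.9%. A lincRNA gene, *Gm30731*, starts 2.18 kb upstream on the other strand, and its own 2 kb promoter overlaps this interval, with 88.9% covered in MGE, 60% in CGE and 0 in LGE and CTX.

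*Pou3f3* (chr1:42695768-42703176, plus strand, 1 exon) had the lowest maximum −log10 q of the 9 genes in each list. It was 6.45 (MGE), 12.9 (CGE), 4.06 (LGE) and 7.07 (CTX). By fold its peaks were not the lowest, since the highest fold in its window was 2.61 (MGE), 3.05 (CGE), 2.90 (LGE) and 3.29 (CTX), the last being the highest of the 9 genes in CTX. The gene body was covered over 32.4% (MGE), 16.4% (CGE), 0 (LGE) and 34.4% (CTX). LGE was the one list with no peak in the gene. Downstream, peaks at about 8 to 10 kb, 13 kb and 16 to 18 kb from the start were present in all 4 lists, and they made up all of the LGE coverage. Window coverage was 38.1% (MGE), 26.7% (CGE), 14.5% (LGE) and 28.6% (CTX).

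The bases of *Pou3f3* covered in all 4 lists held 18.4 CpG per kb, against 41.7 for those covered in at least 1. At the other 8 genes the bases common to all lists held 29.0 to 40.6 CpG per kb. The common peaks of *Pou3f3* were thus in CpG-poorer DNA downstream of the gene. The noncoding genes *Pantr1*, whose 5′ end lies 925 bases upstream on the other strand, *Pantr2* and *AC122898.1* share this window.

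**Figure D4:**
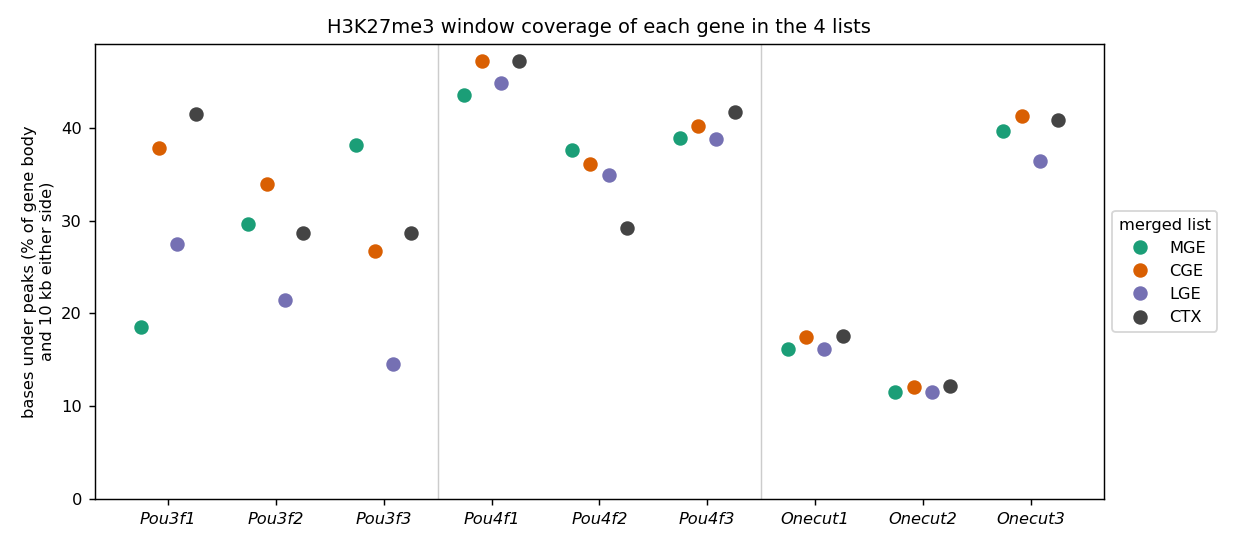
Window coverage (vertical axis, % of the gene body and 10 kb either side under peaks), with 1 point per gene and merged list and no error bars because each region has 1 list. The 4 points of a *Pou3f* gene spread over 12.6 to 23.6 points of coverage and those of a *Pou4f* or *Onecut* gene over 0.66 to 8.35. The windows of *Onecut1* and *Onecut2* are longer, so the same number of bases makes fewer points there.

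A range of window coverage of 10 points or more was seen in 3 of 3 *Pou3f* genes and in 0 of 6 others, against 11.3% of the genes with at least 5 kb covered. Such a range depends on gene length, since the windows of *Onecut1* and *Onecut2* are 49.9 and 81.0 kb long and those of the *Pou3f* genes 23.8 to 27.4 kb. The coverage of *Onecut1* and *Onecut2* was at most 17.6% and 12.1%, so a range of 10 points was harder to reach there. The ranges were 23.0 points at *Pou3f1*, 12.6 at *Pou3f2* and 23.6 at *Pou3f3*. No order of regions was common to the 3 genes. *Pou3f1* was lowest in MGE and highest in CTX, *Pou3f2* lowest in LGE and highest in CGE, and *Pou3f3* lowest in LGE and highest in MGE. With the strongest peaks of each list covering equal bases, *Pou3f1* in CGE moved from 37.8% to 32.3%, *Pou3f3* in CGE from 26.7% to 22.1% and in CTX from 28.6% to 26.5%, and the lowest and highest regions of each gene stayed as they were. The highest region did not stay under other settings. With q-values under 0.001 it was CTX for *Pou3f3* (26.5%, against 24.6% in MGE), and with peaks joined it was MGE for *Pou3f2* (48.8%, against 45.9% in CGE).

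Over the 4 lists, the gene whose window coverage was closest to that of *Pou3f2* was *Dll4*, a Notch ligand, with a mean absolute difference of 1.54 points, followed by *Bmi1*, a Polycomb gene, with 1.90. *Tcf21* (3.05 points) and *Tbr1* (4.68 points) were closest to *Pou3f3*, and *Nkx2-9* (4.43 points) and *Mab21l2* (4.84 points) to *Pou3f1*. With 4 values for each gene, such closeness is easily met and describes the numbers alone.

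*Pou4f1* (chr14:104461676-104467999, minus strand) is a gene of sensory ganglia, habenula and retina. It lay between a domain of 4839 to 5196 bases upstream and one of 4991 to 5270 bases at its 3′ end, with a peak of about 1.1 kb inside the gene between them. The upstream domain ended 1596 (MGE), 1705 (CGE), 1706 (LGE) and 1761 (CTX) bases before the start. Its −log10 q was 28.7 (MGE), 54.7 (CGE), 53.9 (LGE) and 46.1 (CTX). Window coverage was 43.5% (MGE), 47.2% (CGE), 44.8% (LGE) and 47.3% (CTX). The lincRNA gene *D130079A08Rik* starts inside the 3′ domain, with 100% of its promoter covered in all lists, and the protein-coding neighbour *Rnf219*, whose 3′ end reaches into the window, had no covered promoter base.

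*Pou4f2* (chr8:78433010-78436645, minus strand), a gene of retinal ganglion cells, had the strongest peak over a start among the 4 genes whose start was covered. The peak over its start had a −log10 q of 46.1 (MGE), 113.7 (CGE), 86.9 (LGE) and 77.0 (CTX), above 97.3% to 98.2% of the peaks of each list. It was 3485 to 3572 bases wide, and its ends moved by at most 128 bases between lists. A second peak downstream of the gene, 3324 to 3940 bases wide, was present in all 4 lists. A weaker peak, 3.8 to 5.2 kb upstream, was present in MGE, CGE and LGE with a −log10 q of 3.23, 9.32 and 3.45, and absent from the CTX list. Window coverage was 29.2% in CTX, against 37.6% in MGE, 36.1% in CGE and 34.9% in LGE.

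*Pou4f3*, a gene of hair cells, lies on chromosome 18 (42394539 to 42397249, plus strand). A peak of 3106 to 3486 bases lay over its start, another at least 7.58 kb upstream and a further one 3.89 to 7.95 kb downstream of the start, in all 4 lists. Promoter coverage was 71.9% (MGE), 91.3% (CGE), 89.7% (LGE) and 89.3% (CTX). Window coverage was 38.9% (MGE), 40.2% (CGE), 38.8% (LGE) and 41.7% (CTX), a range of 2.89 points. The upstream peak was widest in CTX at 4045 bases, against 1687 in MGE, 1808 in CGE and 1809 in LGE.

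The 3 *Pou4f* genes share a plan in these lists. Each window held at least 2 peaks wider than 3 kb, and no *Pou4f* promoter differed by 25 points between lists. The list with the lowest window coverage differed from gene to gene, MGE at *Pou4f1*, CTX at *Pou4f2* and LGE at *Pou4f3*. The strongest peak of each gene stood above at least 90.1% of the peaks of its list.

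*Onecut1* (chr9:74861921-74891781, plus strand), which encodes HNF6, had its widest peak inside the gene and its strongest far upstream. The wide peak began 459 to 490 bases after the start and ended 5.70 to 5.88 kb after it, over the end of the first exon and the sequence that follows. The strong peak, 1012 to 1194 bases wide, lay 6.98 to 8.27 kb upstream with a −log10 q of 66.4 (MGE), 118.5 (CGE), 185.2 (LGE) and 127.5 (CTX). By q-value it ranked 91 (MGE), 287 (CGE), 12 (LGE) and 66 (CTX) in its list. The bases under it in all 4 lists, chr9:74853751-74854690, lay inside the annotated bodies of the lincRNA genes *Gm28182* and *Gm20649* and of the processed transcript *Gm16551*, and no source here ties them to one gene. Their middle 300 bases, chr9:74854071-74854370 in GRCm38, are printed on the plus strand with CG in capitals, because the LGE value was the highest −log10 q in any of the 9 windows.
*Onecut1* upstream peak: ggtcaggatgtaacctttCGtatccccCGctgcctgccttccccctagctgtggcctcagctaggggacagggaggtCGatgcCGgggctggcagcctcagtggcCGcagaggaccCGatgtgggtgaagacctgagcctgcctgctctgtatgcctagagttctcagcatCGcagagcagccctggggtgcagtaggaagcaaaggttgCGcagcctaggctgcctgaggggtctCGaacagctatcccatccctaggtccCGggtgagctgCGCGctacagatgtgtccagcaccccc

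This stretch held 12 CG in 300 bases, and the 940 bases common to the lists held 44, with a GC content of 63.9%. *Onecut1* window coverage was 16.2% (MGE), 17.4% (CGE), 16.2% (LGE) and 17.6% (CTX), a range of 1.41 points. The order of the q-values across lists did not follow that of the widths, since LGE had the highest q-value rank and the narrowest peak. A weak peak 11.6 to 12.7 kb after the start, with a −log10 q of at most 2.79, was present in CGE, LGE and CTX and absent from MGE.

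*Onecut3* (chr10:80494835-80517276, plus strand) lay under the widest domain of the 9 genes. It was 15425 bases wide in MGE and CTX and 15484 in CGE, from about 6.0 kb before the start to 9.45 kb after it, and stood 3rd, 3rd and 2nd by width in those lists. In LGE the same interval held 3 peaks of 3686, 4735 and 4756 bases with −log10 q of 70.2, 35.6 and 37.7. The single MGE peak had a −log10 q of 23.3. Within their own lists the 3 LGE peaks stood above 96.3%, 88.3% and 89.1% of peaks and the MGE peak above 89.1%. The outer ends differed by at most 59 bases between lists, and coverage of the window was 39.6% (MGE), 41.2% (CGE), 36.4% (LGE) and 40.9% (CTX). A second peak, 18.4 to 20.7 kb after the start and partly over the last exon, was present in all 4 lists. The neighbouring protein-coding gene *Atp8b3*, which overlaps the window at its 3′ end, had at most 4.75% of its promoter covered.

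*Onecut2* had the smallest range of window coverage of the 9 genes, 0.66 points of the longest window, and the largest share of bases common to the lists. It lies on chromosome 18 (64340020 to 64400987, plus strand), and its promoter coverage was 67.2% in each list. A peak of 2385 to 2407 bases, 6.4 to 8.8 kb upstream, had a −log10 q of 67.7 (MGE), 114.3 (CGE), 125.5 (LGE) and 115.1 (CTX). Another peak lay 0.656 to 2.11 kb upstream, and a wide one, 5430 to 5517 bases wide, began 778 to 875 bases after the start. Window coverage was 11.5% (MGE), 12.1% (CGE), 11.5% (LGE) and 12.1% (CTX). Its window was the longest of the 9, at 81.0 kb, and the bases covered, 9.29 to 9.83 kb, were close in number to the 8.81 to 9.46 kb at *Pou4f3*.

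*Onecut1* and *Onecut2* had a layout in common that the names did not choose. Each had its strongest peak about 6 to 9 kb upstream, an uncovered start, and a peak of more than 5.2 kb that began within 0.9 kb after the start. *Onecut3* had a covered start in every list. The sequences of the 2 upstream peaks were not compared.

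Base composition followed coverage at 8 of the 9 genes. The bases covered in at least 1 list held 29.7 to 41.7 CpG per kb at those genes, and the uncovered bases of the same windows 8.04 to 17.6. *Pou4f1* was the exception, with 26.3 CpG per kb in covered and 29.2 in uncovered bases, and its uncovered bases include the CG-dense start printed above. The 4 kb centred on the 5′ end held 38.8 to 81.3 CpG per kb, and the 2 highest values, at *Pou4f1* and *Pou3f3* (80.5), belonged to genes whose start no list covered.

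Other Pou and cut-domain genes were read in the same way. Of 9 other Pou genes, 1 was marked in all 4 lists, against 4.72% of all protein-coding genes. It was *Pou2f2*, an octamer-binding factor of lymphocytes, at 51.4% to 58.0%. *Pou2f1* reached 38.0% in CTX and 0 in LGE, and *Pou5f1*, the pluripotency factor OCT4, lay between 25.1% and 32.5%. *Pou1f1*, *Pou2f3*, *Pou3f4*, *Pou5f2* and *Pou6f1* had no covered promoter base. *Pou3f4*, the remaining gene of the *Pou3f* family, had a window coverage of 0 (MGE), 7.31% (CGE), 0 (LGE) and 11.5% (CTX). Among other genes with cut domains, *Cux1* was marked in all lists at 82.3% to 91.2%, *Satb1* was covered over 40.0% to 47.3%, and *Cux2* had no covered promoter base.

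Genes known to work beside the factors were read from lists that were also chosen by name. Of 13 genes found that act beside the *Pou4f* factors in sensory and retinal neurons, 7 were marked in all 4 lists, 5 in none, of which 2 had no covered promoter base, and 1 differed by 25 points or more, *Atoh7*, a retinal ganglion cell determinant, with 4.85% in LGE and 53.0% to 70.3% elsewhere. Of 11 genes that act beside the *Onecut* factors, 4 were marked in all lists and 1 differed, *Foxa2*, with 32.5% in LGE and 100% elsewhere. Of 10 genes of neural progenitors and neurons that act beside the *Pou3f* factors, 3 were marked in all lists and 5 differed. These were *Myt1l* (0 in MGE, 92.5% to 100% elsewhere), the neuronal tubulin gene *Tubb3* (4.35% in MGE, 60.4% to 87.0% elsewhere), *Rfx4* (30.5% in CGE, 0 elsewhere), *Nes* (1.05% in LGE to 28.9% in CGE) and *Hes5* (62.5% in LGE to 88.8% in CTX). *Hes5* was marked in all 4 lists as well. The counts marked in all 4 lists can be read against 4.72% of all protein-coding genes. Those of differing promoters can be read against the 8.42% of all promoters, and the lists are too short for more than that.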

How the data were processed

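CUT&Tag for H3K27me3 was analysed as 4 merged peak lists, for MGE (2 samples), CGE, LGE and CTX (3 each). The authors aligned reads to GRCm38 with Bowtie2, removed blacklisted reads and duplicates (Picard), merged the samples with SAMtools and called broad peaks with MACS, whose version and control are not given in the sources used here. The deposited lists give for each peak a fold enrichment (a ratio over local background) and a q-value as its −log10, both as the authors' caller wrote them. Sequencing depth can change the number of peaks and their −log10 q. The study's methods give a depth for each replicate. In replicate 2 the MGE library was shallower than those of CGE, LGE and CTX, and in the other replicate it was deeper. The part of depth in the differences between lists was not tested. The lists hold no read counts, and no counting interval or depth per peak can be given. No column of per-sample values was left unused (0).

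Covered bases were counted in Python 3.11.15 with numpy 2.4.6 against GENCODE M21 on chromosomes 1 to 19 and X, with code checked on simulated peaks, and coordinates count from 1. Figures were drawn with matplotlib 3.10.9. The share of bases covered in all lists, the state of the exact 5′ end and the count of recurring peaks were added after the data were seen. The 9 genes and the gene lists were chosen with earlier results of these data known. Genes named were the 9, other Pou and cut-domain genes, up to 4 genes of each companion list with the largest range (*Hes5* beyond these, and some markers and noncoding neighbours were named after their values were seen), protein-coding neighbours, and the 2 closest genes for each gene with a window range of 10 points or more. A few genes of these lists are not reported here.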

Additional observations from a re-analysis of the deposited data

How the results depend on the processing

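No paired analysis was possible because the samples of each region were merged before peaks were called, and for the same reason no sample could be left out. Of the alternatives for the main counts and family values, 126 stayed within 1.5 times the reported value and 18 did not; for single genes these were 347 and 13. With q-values under 0.001, the *Pou3f* median window coverage in MGE fell from 29.6% to 17.8%. With peaks less than 3 kb apart joined, that median was 48.8% in MGE and 32.6% in LGE. Joining left 1 promoter of the 9 that differed between regions, as did a difference of 50 points (1). In the 4 kb interval centred on the start, 3 of the 9 genes differed, and *Onecut3* was not among them. In gene bodies alone, the *Pou3f* median was 16.4% in CGE and 0 in LGE. With 50 kb either side, the medians for MGE, CGE, LGE and CTX were 9.11%, 9.29%, 5.66% and 9.07% for *Pou3f* and 10.8%, 11.5%, 11.0% and 12.1% for *Pou4f*. Those of *Onecut* were 11.7%, 11.1%, 9.53% and 9.36% in the same order, so in MGE *Onecut* lay above *Pou4f*. Wider windows hold more uncovered sequence by construction, and other causes were not tested. The share of covered bases found in every list, an alternative set chosen after seeing the data, was 25.5% to 48.6% for *Pou3f*, 80.3% to 88.3% for *Pou4f* and 83.0% to 90.4% for *Onecut* over 8 alternatives, and for *Pou3f2* it rose to 64.3% with peaks joined, above *Pou4f2* at 60.8%. For *Pou3f3* it fell to 18.3% with q-values under 0.001.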
